A study of Mus musculus with 24 samples.

Results

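The alpha-arrestin genes Arrdc1, Arrdc2, Arrdc3 and Arrdc4 and the related gene Txnip were measured in the mouse hippocampus by 9 probes among 56605 gene probes of a two-color microarray, as 5 of the 23787 genes that its probes named. These were all probes whose annotated transcript belonged to 1 of the 5 symbols. The genes were selected on their log2 ratios of corticosterone-treated over control mice, which were already known, so the differences between corticosterone-treated and control mice are given as a description without a test. The animals were 48 male Swiss-Webster mice, given as 12 weeks of age in the labels. They were first kept alone for some weeks before treatment, so they were older at collection, and brothers from the same litters were divided between treated and control groups. Corticosterone-treated mice drank 100 µg/ml corticosterone with 0.45% hydroxypropyl-β-cyclodextrin through 12 h of the dark phase, and control mice drank the same vehicle without the hormone. The bottles were given at the end of the light phase, and whole hippocampi were collected in the first, the fifth or the ninth hour of the next light phase, which is the resting period of the mouse. Each of the 6 groups held 8 animals, and each of the 24 arrays compared 1 control animal labeled with Cy3 with 1 treated animal labeled with Cy5. The 8 arrays of an hour were spread over 3 slides.

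Arrestins are scaffold proteins that bring membrane cargo to the endocytic and ubiquitin machinery. The alpha-arrestins carry PPxY motifs in their tails, which bind the WW domains of Nedd4-family ubiquitin ligases, and so they link these enzymes to receptors and transporters. Txnip, the thioredoxin-interacting protein, has the same arrestin fold, binds thioredoxin and promotes removal of the glucose transporter Slc2a1 from the cell surface. Transcription of Txnip and Arrdc4 is induced by the glucose-sensing factors Mlxip (MondoA) and Mlxipl (ChREBP), which act with Mlx at paired E-box-like sequences, and Txnip is also a known glucocorticoid target.

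Promoter sequences are shown for the 3 genes whose signal was higher after corticosterone in the first hour, since shared and unshared motifs in them can be read directly. Each is the 250 bases before the annotated start in RefSeq on GRCm38.p6, written 5′ to 3′ on the strand of the gene, and capitals mark every match on either strand to CACGTG, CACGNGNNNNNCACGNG (a pair of E-box-like sequences spaced as in a carbohydrate response element), GTAAACA (a forkhead factor core), GNACANNNTGTNC (the palindrome of a glucocorticoid receptor site) or CCAAT. The motifs were chosen after these windows had been viewed.
Txnip promoter, chr3:96557707-96557956, plus strand: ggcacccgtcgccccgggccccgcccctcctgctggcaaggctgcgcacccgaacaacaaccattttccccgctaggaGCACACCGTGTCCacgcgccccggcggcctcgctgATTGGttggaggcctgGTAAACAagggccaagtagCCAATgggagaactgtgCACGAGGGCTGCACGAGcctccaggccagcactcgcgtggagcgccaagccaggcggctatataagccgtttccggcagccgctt
Arrdc4 promoter, chr7:68749239-68749488, minus strand: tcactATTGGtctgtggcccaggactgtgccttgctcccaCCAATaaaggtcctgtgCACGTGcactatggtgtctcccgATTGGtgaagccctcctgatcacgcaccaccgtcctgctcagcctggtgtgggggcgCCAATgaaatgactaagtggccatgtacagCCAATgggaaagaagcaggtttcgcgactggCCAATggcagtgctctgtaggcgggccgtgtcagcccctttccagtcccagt
Arrdc2 promoter, chr8:70839721-70839970, minus strand: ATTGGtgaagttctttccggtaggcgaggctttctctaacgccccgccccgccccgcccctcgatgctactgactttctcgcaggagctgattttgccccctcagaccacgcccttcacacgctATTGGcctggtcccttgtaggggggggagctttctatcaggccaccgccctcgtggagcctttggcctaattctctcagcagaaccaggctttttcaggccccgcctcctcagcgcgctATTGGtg

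The Txnip window held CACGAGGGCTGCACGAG, the only match among the members to the paired motif, beginning 85 bases before the start. Of all 32851 promoter windows of this length, 0.0457% held that motif. The same window held GTAAACA 121 bases before the start (3.17% of all windows) and GCACACCGTGTCC 172 bases before it, a match to the receptor palindrome found in 0.387% of windows. In the Arrdc4 window, CACGTG stood 193 bases before the start, and 6.02% of all windows had this E-box. CCAAT was matched 6 times for Arrdc4, 3 times for Arrdc2 and 2 times for Txnip, and 33.8% of windows had at least 1 match. The single window of Arrdc1, at chr2:24935282-24935531, contained none of the 5 motifs. Arrdc3 has 3 annotated starts, and its windows contained no motif other than CCAAT. A match describes letters in the window and not a site of binding.

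The probes lay in genes on 5 chromosomes of GRCm38.p6: Arrdc1 at chr2:24925352-24935335, Txnip at chr3:96557957-96561857, Arrdc4 at chr7:68736994-68749238, Arrdc2 at chr8:70835129-70839720 and Arrdc3 at chr13:80883384-80896042. Arrdc3 had 1 probe and each of the others had 2. Values are normalized intensities in arbitrary units, and the level of a gene cannot be set against that of another gene because probes differ in brightness. Each gene is led by its brightest probe. Of the 9 probes, 7 were well above background in both channels on all 24 arrays. The second Txnip probe (A_55_P2006255) was well above background on 19 arrays in the control channel and on 24 in the corticosterone channel. The second Arrdc1 probe (A_55_P1958285) was not well above background on any array in control mice and was so on 12 in treated mice.

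**Figure D1:**
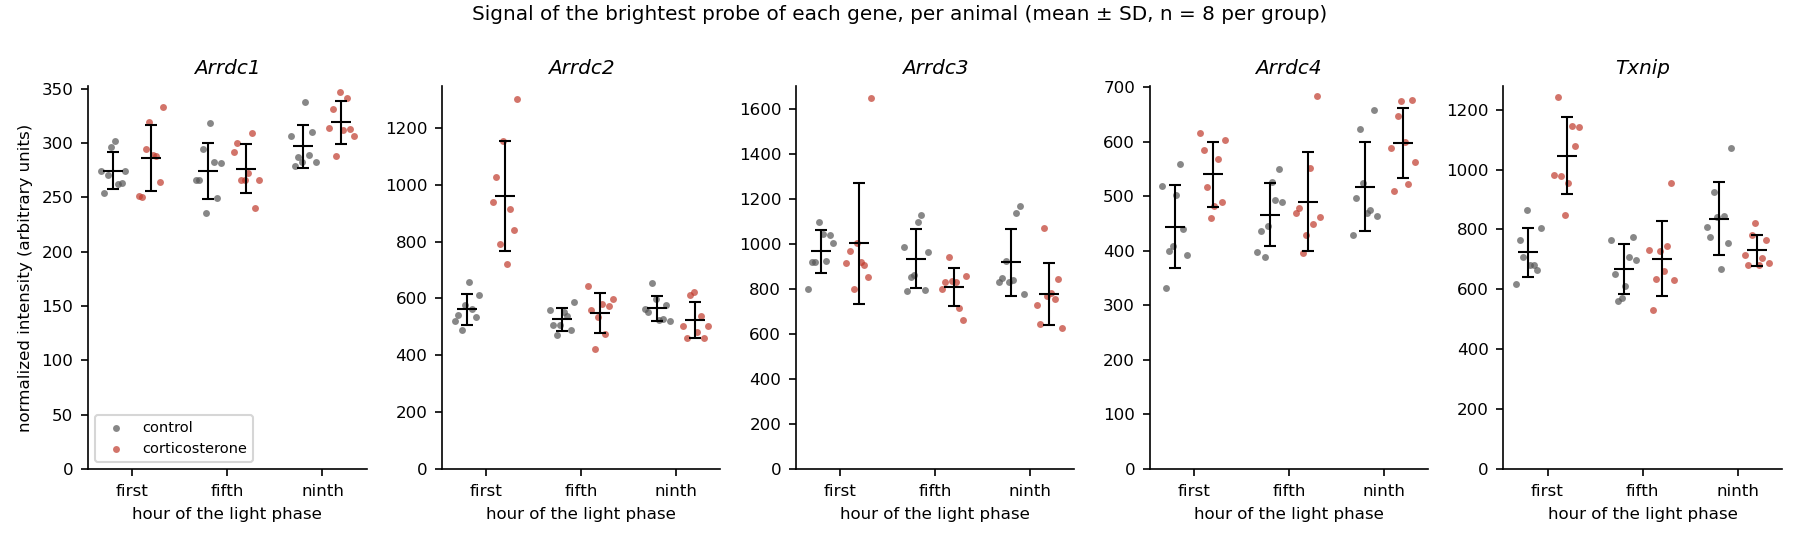
Normalized intensity of the brightest probe of each gene (y axes from 0, arbitrary units) in each animal, by hour of the light phase, with control mice in gray and corticosterone-treated mice in red; bars are the mean ± SD of 8 animals. Treated mice of the first hour reached 1303 for Arrdc2 and 1243 for Txnip, and the point at 1653 for Arrdc3 is a single animal.

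By the brightest probes, Arrdc2 and Txnip were higher after corticosterone in the first hour, near control values in the fifth and on the lower side in the ninth. Arrdc4 was higher in the first hour, to a smaller extent by these probes, though it was not separated from Txnip beyond the spread between arrays. By the second probes, Arrdc4 was at 0.39 and Txnip at 0.32. Arrdc1 and Arrdc3 were close to control values in the first hour, and Arrdc3 was on the lower side in the fifth (-0.20) and the ninth (-0.25). In the first hour, 6 of the 9 probes were past the threshold of the test (adjusted p under 0.05 over all probes), all higher and from the genes Arrdc2, Arrdc4 and Txnip. Over all probes, 17.5% were past this threshold in that hour and 8.85% were higher. Because these ratios served to propose the genes, nothing is read from that count. Calls of member probes between treated and control mice that are named below are likewise a description. The median log2 fold change was 0.32 over the 9 probes and -9.2e-04 over all probes. In tissue from the whole hippocampus, a change in the share of cells of a type and a change in RNA per cell cannot be told apart.

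Arrdc2, an alpha-arrestin with PPxY motifs, had the highest first-hour fold change of the 5 genes. It was not separated from Txnip beyond the spread between arrays. In the first hour, the intensity of its brightest probe (A_55_P2088440) ranged from 487 to 658 in control mice, with a median of 553, and from 722 to 1303 in treated mice, with a median of 926. The groups did not overlap, a feature of 2 of the 9 probes and of 1.59% of all probes. The mean rose from 562 ± 54.1 (SD, n = 8) to 961 ± 193 (SD, n = 8), and the log2 fold change was 0.75 ± 0.08 (SE), a difference of 68.8%. All 8 arrays gave a ratio above 0, as 3 of the 9 member probes did in that hour and 10.3% of all probes in either direction.

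The second Arrdc2 probe (A_55_P1957922) gave nearly the same values. Its first-hour intensities were 472 to 668 in control mice (median 554) and 679.9 to 1391 in treated mice (median 921), without overlap, and its log2 fold change was 0.76 ± 0.08 (SE). Across the 24 arrays, the log2 ratios of the 2 probes correlated with r = 0.96, and with r = 0.82 after subtraction of the mean of each hour, as a description of probes read on the same arrays.

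In the fifth hour, Arrdc2 intensities by its brightest probe ranged from 471 to 586 in control mice (median 522) and from 424 to 645 in treated mice (median 566). The treated range enclosed the control range, and the log2 fold change was 0.05 ± 0.08 (SE). In the ninth hour, control mice ranged from 520.0 to 654 (median 558) and treated mice from 460.5 to 621 (median 503), with a log2 fold change of -0.12 ± 0.08 (SE). There, 5 of the 8 treated mice lay below the lowest control mouse. By the second Arrdc2 probe, all 8 arrays of the ninth hour had a ratio below 0, and the log2 fold change was -0.18 ± 0.08 (SE), or -0.12 without the arrays of slide 1. Thus the treated mice of the first hour stood apart, and the other 5 groups of Arrdc2 had overlapping ranges.

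Txnip showed the second highest first-hour fold change by the brightest probes, though it was not separated from Arrdc4 beyond the spread between arrays. In the first hour, its brightest probe (A_66_P131361) ranged from 618 to 864 in control mice (median 696) and from 847 to 1243 in treated mice (median 1030.0). The ranges met only in the highest control mouse and the lowest treated mouse, which were hybridized to the same array. The mean rose from 724 ± 81.5 (SD, n = 8) to 1046 ± 129 (SD, n = 8), a log2 fold change of 0.53 ± 0.08 (SE) or 44.3%, and 7 of 8 arrays had a ratio above 0. The exception was replicate 4, with a log2 ratio of -0.03.

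In the fifth hour, Txnip by the same probe ranged from 562 to 776 in control mice (median 675) and from 531 to 955 in treated mice (median 695), and the log2 fold change was 0.06 ± 0.08 (SE). In the ninth hour, control mice ranged from 667 to 1072 (median 825) and treated mice from 682 to 822 (median 709.7), with a log2 fold change of -0.19 ± 0.08 (SE), or -0.12 without replicate 8. The treated range lay within the control range, and 6 of 8 ratios were below 0. The second Txnip probe, of low intensity, had log2 fold changes of 0.32 ± 0.09 (SE) in the first hour, 0.18 ± 0.09 (SE) in the fifth and -0.14 ± 0.09 (SE) in the ninth. Its ninth-hour ratio was below 0 on 7 of 8 arrays, with a median of -0.21, and was 0.49 on replicate 6. Its control signal was well above background on 6 of 8 arrays in the first hour and on 5 in the fifth, and under the alternatives its values ranged from 0.14 to 0.71 in the first hour and from 0.07 to 0.37 in the fifth. Its first-hour intensities were 35.0 to 43.4 in control mice and 41.7 to 58.6 in treated mice, and 8 of 8 ratios were above 0. After subtraction of the mean of each hour, the 2 Txnip probes did not vary together over the 24 arrays (r = -0.13).

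Arrdc4, an alpha-arrestin that limits glucose uptake as Txnip does, was measured by probes for 2 different annotated transcripts. In the first hour, the brightest probe (A_55_P2504175) ranged from 332 to 559 in control mice (median 424) and from 459.7 to 616 in treated mice (median 542). The groups overlapped, with 4 treated mice above the highest control mouse, and the log2 fold change was 0.29 ± 0.09 (SE). By the second Arrdc4 probe (A_66_P122074), control mice ranged from 294 to 344 (median 315) and treated mice from 322 to 496 (median 422), and 7 treated mice exceeded every control mouse. Its log2 fold change was 0.39 ± 0.07 (SE). Each probe had 7 of 8 ratios above 0, and the brightest was not past the threshold without the arrays of slide 1.

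The mean Arrdc4 ratio was above 0 in the later hours. Neither probe was past the threshold there, which is a description, since these ratios served to propose the genes. The brightest probe was past it in the ninth hour under 4 alternatives: limma on the log ratios within arrays, which pairs the treated and the control mouse of an array, no normalization between arrays, probes with a signal of 50 or more, and the authors' log2 ratios. It was 0.06 ± 0.09 (SE) in the fifth hour and 0.22 ± 0.09 (SE) in the ninth hour by the brightest probe, and 0.11 ± 0.07 (SE) and 0.14 ± 0.07 (SE) by the second probe. Ratios above 0 were found on 5 of 8 arrays of the fifth hour by the brightest probe and on 7 by the second, and on 6 of 8 arrays of the ninth hour by the second probe. Ninth-hour values of the brightest probe ranged from 428 to 657 in control mice (median 486) and from 509 to 676 in treated mice (median 593), and 8 of 8 arrays had a ratio above 0. Over all probes, 10.8% had the same direction on all arrays of that hour.

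Arrdc3, which is known for the endocytosis of the integrin Itgb4, had a first-hour log2 fold change near 0, as Arrdc1 had. In that hour, its only probe (A_55_P2845263) ranged from 801 to 1099 in control mice (median 964) and from 803 to 1653 in treated mice (median 919.5). The log2 fold change was 0.02 ± 0.10 (SE), with 5 of 8 ratios below 0. The treated mouse at 1653 was the animal of replicate 8, and the next highest treated mouse was at 1004. Without that array, the log2 fold change of Arrdc3 was -0.08. In the fifth hour, control mice ranged from 793 to 1129 (median 916) and treated mice from 664 to 943 (median 831), and the log2 fold change was -0.20 ± 0.10 (SE), or -0.11 without the arrays of slide 3. The ninth-hour ranges were 781 to 1169 (median 846) and 626 to 1074 (median 763), 5 treated mice lay below every control mouse, and the log2 fold change was -0.25 ± 0.10 (SE), or -0.37 without the arrays of slide 1. Neither value was past the threshold, though the ninth-hour value was when only probes with a signal of 50 or more were tested.

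Arrdc1, which recruits Tsg101 to bud vesicles from the plasma membrane, had small differences by its brightest probe (A_55_P1958280). In the first hour, it ranged from 254 to 302 in control mice (median 273) and from 250.01 to 333 in treated mice (median 289). The log2 fold changes were 0.05 ± 0.05 (SE), 0.01 ± 0.05 (SE) and 0.10 ± 0.05 (SE) in the first, the fifth and the ninth hour. The ranges overlapped in each hour. The second Arrdc1 probe (A_55_P1958285) was not well above background in control mice, and it was well above background in treated mice on 2, 4 and 6 of the 8 arrays of the first, the fifth and the ninth hour, so no fold change is given for it. It was the 1 probe of the 9 past the threshold in the ninth hour, where 7.01% of all probes were higher, and this call was lost without the arrays of slide 1 or of slide 2. No member probe was past it in the fifth hour, where 18.1% of all probes were.

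**Figure D2:**
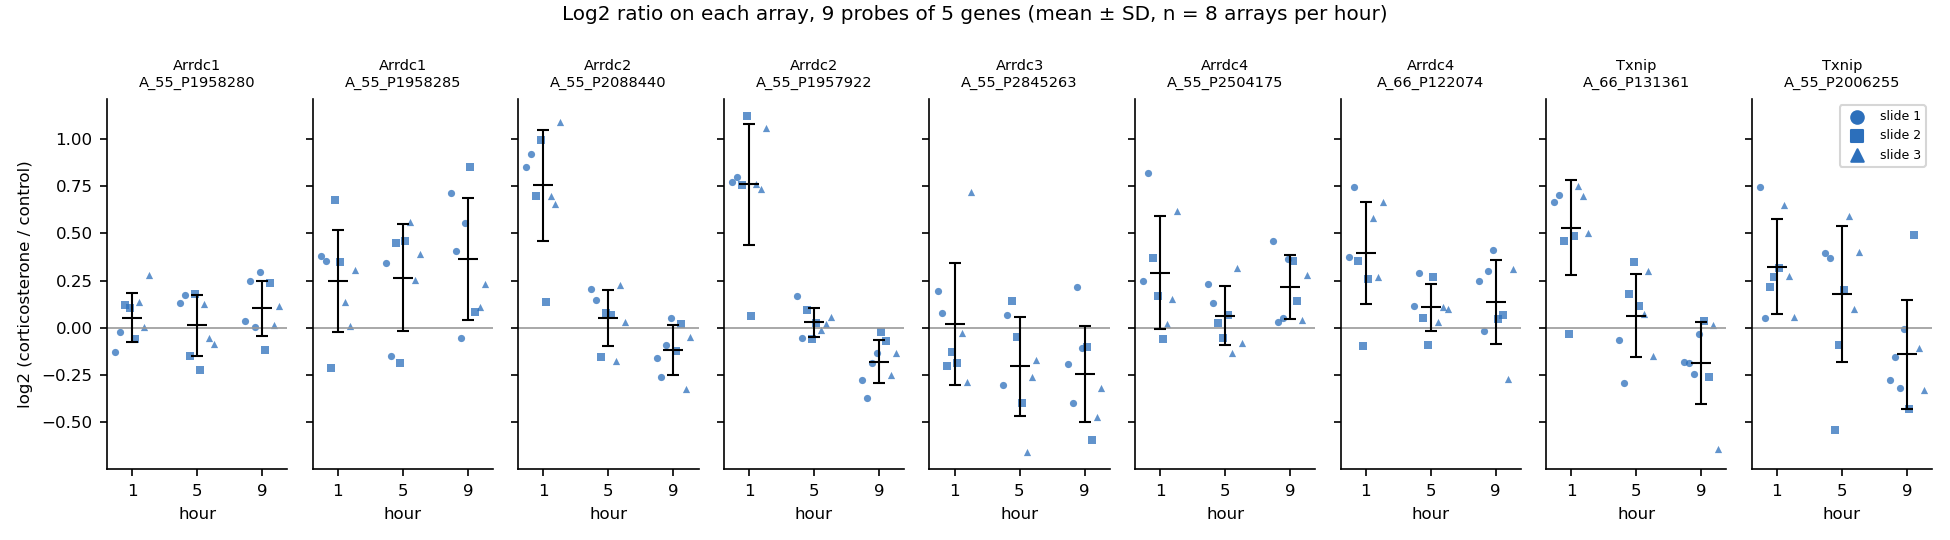
Log2 ratio of corticosterone over control on each array for the 9 probes, by hour, with the slide as the symbol; bars are the mean ± SD of 8 arrays. Both Arrdc2 probes lie above 0 on every first-hour array and the second of them lies below 0 on every ninth-hour array. The control signal of the second Arrdc1 probe was not well above background on any array, so its points and bars are not read as fold changes.

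The paralogs differed from each other on the same arrays. These pairwise differences are a description over the 10 pairs of brightest probes. In the first hour, the log2 ratio of Arrdc2 exceeded that of Arrdc3 by 0.73 ± 0.28 (SD, n = 8 arrays), that of Arrdc4 by 0.46 ± 0.25 (SD) and that of Arrdc1 by 0.70, with the same direction on 8 of 8 arrays for each pair. Arrdc2 minus Txnip was 0.23 ± 0.42 (SD) and was above 0 on 5 of 8 arrays, so this pair was not separated beyond the spread between arrays. Txnip exceeded Arrdc3 by 0.51 ± 0.39 (SD) on 7 of 8 arrays. Arrdc4 minus Txnip was -0.24 ± 0.36 (SD) and above 0 on 3 of 8 arrays, so these were not separated either. In the ninth hour, Arrdc4 exceeded Arrdc2 by 0.33 ± 0.16 (SD) and Txnip by 0.40 ± 0.27 (SD), each on 8 of 8 arrays. Arrdc1 exceeded Arrdc2 by 0.22 ± 0.15 (SD) on 8 of 8 arrays of that hour. Arrdc3 minus Arrdc4 was -0.46 ± 0.27 (SD) and above 0 on 1 of 8 arrays. In the fifth hour, the mean ratios of Arrdc1, Arrdc2, Arrdc4 and Txnip lay between 0.01 and 0.06, and that of Arrdc3 was -0.20. Arrdc1 exceeded Arrdc3 by 0.22 ± 0.31 (SD) and Arrdc2 exceeded it by 0.26 ± 0.28 (SD), each on 7 of 8 arrays. Arrdc3 was above Txnip on 1 of 8 arrays and above Arrdc4 on 2.

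Arrdc2 and Txnip were higher in the same hour but did not follow each other from array to array. Their log2 ratios correlated with r = 0.66 over the 24 arrays and with r = -0.19 after subtraction of the mean of each hour. Both values describe measurements that share arrays and dyes. The array with the highest Txnip ratio, replicate 6, had 0.75 for Txnip and 0.70 for Arrdc2. On replicate 4, Arrdc2 had a log2 ratio of 1.00 and Txnip had -0.03. On replicate 5, Arrdc2 had 0.13 and Txnip had 0.49. The low Arrdc2 ratio of replicate 5 came from the highest control mouse (658) and the lowest treated mouse (722) of that hour, and the second Arrdc2 probe gave a ratio of 0.06 on that array. Within hours, the correlation of Arrdc2 with Arrdc4 was r = 0.64 between the brightest probes and 0.35, 0.43 and 0.07 for the other 3 pairs of their probes. Arrdc3 correlated within hours with r = 0.39 and 0.28 with the 2 probes of Arrdc2 and with 0.38 and 0.46 with those of Arrdc4. On the first-hour replicate 8, which held the highest Arrdc3 signal, the brightest probes had ratios of 0.72 for Arrdc3, 1.09 for Arrdc2 and 0.62 for Arrdc4. These correlations include that array, and no value without it is given.

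**Figure D3:**
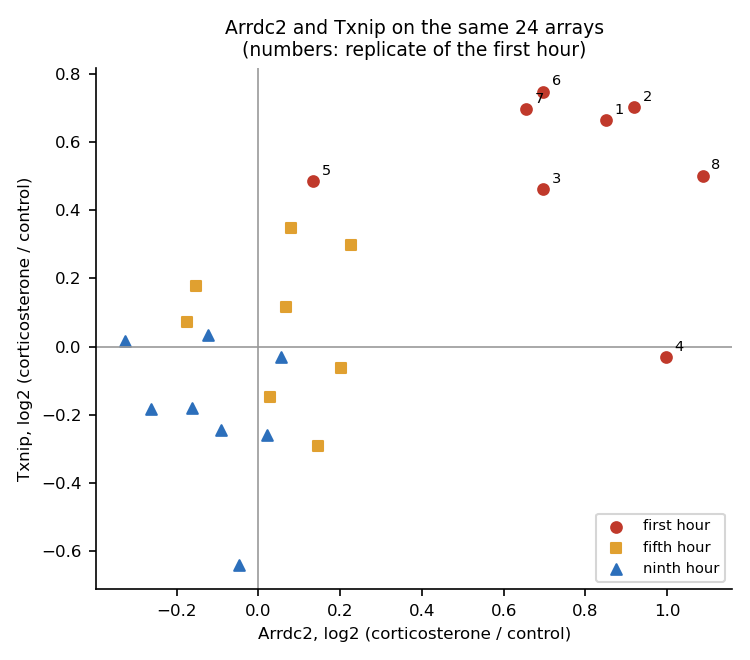
Log2 ratio of Arrdc2 (x axis) against log2 ratio of Txnip (y axis) on the same 24 arrays, 1 point per array, with symbols by hour and replicate numbers beside the first-hour points. Replicate 4 lies at 1.00 for Arrdc2 and -0.03 for Txnip, and replicate 5 at 0.13 and 0.49.

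By the brightest probes, the response of Arrdc2 and Txnip changed most among the member genes between the first and the ninth hour. The changes of Arrdc3 and of the second Arrdc4 probe, given below, were smaller but also larger than their standard errors. The corticosterone effect on Arrdc2 was lower in the ninth hour than in the first by 0.87 on the log2 scale (SE 0.11) for the brightest probe and by 0.94 (SE 0.12) for the second. For Txnip it was lower by 0.72 (SE 0.11) by the brightest probe and by 0.46 (SE 0.13) by the second, whose value ranged from -0.83 to -0.21 under the alternatives. The differences of both Arrdc2 probes and of the brightest Txnip probe were past the threshold, where 0.574% of all probes were lower. Between the fifth hour and the first, the effect on Arrdc2 fell by 0.70 (SE 0.11) and 0.73 (SE 0.12) for its 2 probes, which were the 2 member probes past the threshold in a comparison where 0.0353% of all probes were lower. The comparisons with the first hour share its arrays, which also served to choose the genes, so these counts and those of the treated mice are a description and nothing is read from the shares of all probes beside them. For Arrdc4, the brightest probe changed between the first and the ninth hour by -0.08 (SE 0.12) and the second by -0.26 (SE 0.10), or -0.15 without the arrays of slide 3. On slides 1, 2 and 3, the brightest Arrdc4 probe had mean ratios of 0.53, 0.16 and 0.27 in the first hour. In the ninth hour they were 0.23, 0.25 and 0.16, so the sign of this change differed between slides. For Arrdc3 the change was -0.27 (SE 0.13), or -0.15 without the arrays of slide 3, and for Arrdc1 it was 0.05 (SE 0.07). A constant difference between the dyes would enter each comparison of treated with control mice, and it cancels in these differences between hours.

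For Arrdc2 and the brightest Txnip probe, the treated mice changed more between these hours than the control mice. Arrdc3 was at -0.35 (SE 0.11) in treated and -0.08 (SE 0.11) in control mice, a difference of -0.27 (SE 0.13). The second Arrdc4 probe was at -0.46 (SE 0.09) and -0.20 (SE 0.09), a difference of -0.26 (SE 0.10). These differences are a description and carry no test. In treated mice, Arrdc2 fell from the first to the ninth hour by 0.86 (SE 0.09) by the brightest probe and by 0.93 (SE 0.10) by the second, and Txnip fell by 0.51 (SE 0.09) by its brightest probe. The second Txnip probe changed by -0.19 (SE 0.11) in treated mice and by 0.28 (SE 0.11) in control mice. By the fifth hour, the same 3 probes were already lower than in the first by 0.79, 0.89 and 0.58. The second Arrdc4 probe was lower by 0.46 (SE 0.09) in the ninth hour and by 0.47 (SE 0.09) in the fifth. These 4 probes were past the threshold in both comparisons, where 1.82% and 0.293% of all probes were lower. The brightest Arrdc4 probe had the opposite sign between the first and the ninth hour, 0.15 (SE 0.10), and the difference between the 2 Arrdc4 probes was not tested.

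Control mice were compared between hours to ask whether the genes have a course of their own over the resting period. The control signals are the denominators of the ratios that served to choose the genes, so this comparison is not fully independent of that choice. In this test, by limma's separate channel analysis with all control RNA in Cy3, 0 of the 9 probes passed the threshold for any pair of hours. An unadjusted p under 0.05 was reached by 4 of 9 probes from the first to the ninth hour, by 1 from the first to the fifth, and by 3 from the fifth to the ninth. Over all probes, 10.2%, 7.20% and 6.34% had an unadjusted p under 0.05, and 0.537%, 0.0053% and 0.0336% were past the adjusted threshold. The largest change was that of Txnip, whose control mean went from 668 ± 82.5 (SD, n = 8) in the fifth hour to 836 ± 122 (SD, n = 8) in the ninth, a log2 change of 0.32 ± 0.09 (SE) with an adjusted p = 0.34 by limma. The second Txnip probe changed by 0.30 ± 0.11 (SE; adjusted p = 0.71 by limma). Between the first and the ninth hour, the Arrdc4 probes moved in opposite directions in control mice, by 0.22 ± 0.10 (SE) for the brightest (adjusted p = 0.40 by limma) and by -0.20 ± 0.09 (SE) for the second (adjusted p = 0.34 by limma). Txnip changed by 0.20 ± 0.09 (SE) by its brightest probe and by 0.28 ± 0.11 (SE) by its second over the same interval (each adjusted p = 0.44 by limma). Arrdc2 stayed within 0.01 ± 0.09 (SE) over it (adjusted p = 0.99 by limma). Arrdc3 changed by -0.08 ± 0.11 (SE; adjusted p = 0.86 by limma) and Arrdc1 by 0.11 ± 0.06 (SE; adjusted p = 0.52 by limma).

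**Figure D4:**
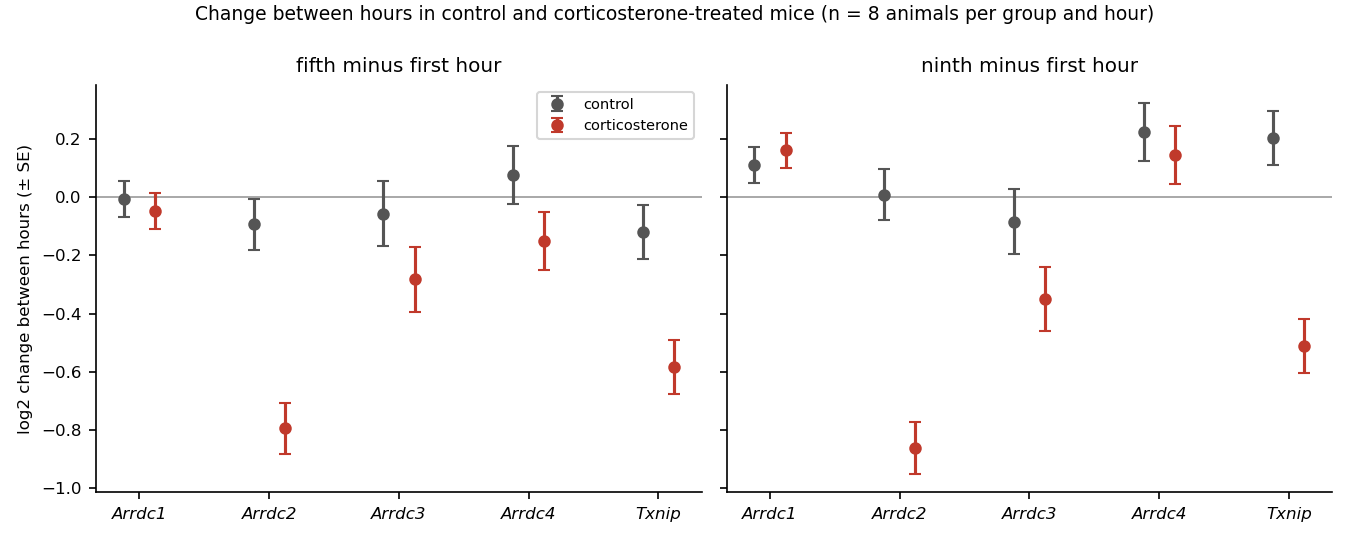
Log2 change from the first to the fifth hour (left) and from the first to the ninth hour (right) for the brightest probe of each gene, in control mice (gray) and corticosterone-treated mice (red); bars are ± SE, with 8 animals per group and hour. Arrdc2 in treated mice lies at -0.79 and -0.86, and in control mice at -0.09 and 0.01.

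The genes around the alpha-arrestins were read from 7 lists with 80 genes in all, each gene by its brightest probe, and tested over all probes. The 80 include a list of 12 glucocorticoid reference genes. The lists were drawn up with earlier results of these data known. Over all probes, 8.85% were higher and 8.67% lower in the first hour, 8.62% and 9.47% in the fifth, and 7.01% and 6.97% in the ninth, and the counts of each list are to be read against these shares. In the cargo, budding and effector list, 7 of 18 genes were higher and 1 lower in the first hour, with a median log2 fold change of 0.07 against -9.2e-04 over all probes. Slc2a1, the glucose transporter that Txnip and Arrdc4 remove from the cell surface, rose from a mean of 6200 to 12155, a log2 fold change of 0.92 ± 0.09 (SE, n = 8, adjusted p = 2.2e-10 by limma), with 8 of 8 arrays higher. It was 0.32 ± 0.09 (SE) in the fifth hour (adjusted p = 0.011 by limma) and -0.08 ± 0.09 (SE) in the ninth (adjusted p = 0.64 by limma). Slc2a4, the insulin-responsive transporter, rose by 0.84 ± 0.13 (SE) and Slc2a3, a neuronal transporter, by 0.22 ± 0.05 (SE) in the first hour, each on 8 of 8 arrays. Ddit4, a stress-induced inhibitor of mTORC1 that forms a complex with Txnip, rose by 0.57 ± 0.07 (SE). The effect on Slc2a1 and Ddit4 differed between the ninth and the first hour by -0.99 ± 0.13 (SE, adjusted p = 1.2e-06 by limma) and -0.69 ± 0.09 (SE, adjusted p = 6.5e-07 by limma). Later, 5 genes of this list were higher and 2 lower in the fifth hour, and in the ninth 4 and 1. Prkaa1, a catalytic subunit of the AMP-activated kinase, was the gene that fell, by 0.16 on the log2 scale, and it was named after its value was seen because it lies outside the rule for named genes.

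Glucose-sensing factors and their targets were split, with 3 of 12 higher and 3 lower in the first hour and a median log2 fold change of 0.03. Mlxipl rose by 0.32 ± 0.07 (SE, adjusted p = 3.2e-04 by limma) on 8 of 8 arrays and was still higher by 0.29 ± 0.07 (SE) in the ninth hour (adjusted p = 0.0023 by limma). For Mlxip the log2 value was 0.04 ± 0.09 (SE, adjusted p = 0.75 by limma). Thrsp, a lipogenic gene, rose by 0.27, G6pc3, a glucose-6-phosphatase, fell by 0.22, and Tkt, the transketolase of the pentose phosphate pathway, fell by 0.17. The other calls were Pklr, at a mean signal of 21.7 below the limit of 50, and Klf10, which fell by 0.36 on 7 of 8 arrays, both named after their values were seen. None of the 12 passed the test for a difference in effect between the ninth and the first hour, and 1 of them had an unadjusted p under 0.05, where 7.16% of all probes did. In the fifth hour 4 were higher and 2 lower, and in the ninth 2 and 1.

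In the thioredoxin system, 1 of 13 genes was higher and 1 lower in the first hour, where 17.5% of all probes were past the threshold, with a median of -0.05. Txn1, the thioredoxin that Txnip binds, was at -0.02 ± 0.04 (SE, adjusted p = 0.77 by limma). Nxn (nucleoredoxin) rose by 0.55 ± 0.12 (SE, adjusted p = 5.3e-04 by limma) on 8 of 8 arrays, and Prdx1, a peroxiredoxin, fell by 0.14. None of the 13 was higher and 3 were lower in the fifth hour, and 1 was higher and 0 lower in the ninth. Among the 5 inflammasome genes, including Nlrp3, none passed the limma test in any hour, and 2, 0 and 1 had an unadjusted p under 0.05 in the first, the fifth and the ninth hour, where 31.1%, 31.2% and 27.9% of all probes did. Nlrp3 itself was at a first-hour log2 difference of 0.26 ± 0.09 (SE, adjusted p = 0.065 by limma) at a mean signal of 44.9.

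Of the 11 HECT ubiquitin ligases and adaptors, 2 were higher and 3 lower in the first hour, with a median of -0.15. Later, 0 were higher and 4 lower in the fifth hour, and 1 and 2 in the ninth. Hecw2 fell by 0.25 and Wwp2 by 0.17, each on 8 of 8 arrays. Nedd4 had -0.23 ± 0.10 (SE, adjusted p = 0.089 by limma) with 8 of 8 ratios below 0, and Itch had -0.12 ± 0.09 (SE, adjusted p = 0.36 by limma). The remaining calls, named after their values were seen, were Nedd4l and Smurf1, which each rose by 0.21 on 7 of 8 arrays, and Hecw1, which fell by 0.25. Nedd4l and Smurf1 were also the 2 genes of the list with a lower effect in the ninth hour than in the first, by 0.31 (adjusted p = 0.0017 by limma) and 0.23 (adjusted p = 0.011 by limma).

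The 9 other genes with an arrestin fold included 2 that were higher and 1 that was lower in the first hour, with a median of -0.03. Arrb1, a beta-arrestin, rose by 0.09 ± 0.03 (SE, adjusted p = 0.027 by limma) and was higher by 0.14 ± 0.03 (SE, adjusted p = 6.2e-04 by limma) in the ninth hour. Vps26b and Vps26a, paralogous retromer subunits, moved apart: Vps26b rose by 0.22 ± 0.04 (SE) on 8 of 8 arrays and Vps26a fell by 0.11 ± 0.04 (SE) on 8 of 8 arrays. Later, 2 genes of this list were higher and 0 lower in each of the fifth and the ninth hour. The remaining alpha-arrestin, Arrdc5, had a mean signal of 22.1, below the limit of 50, and no fold change is given for it.

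**Figure D5:**
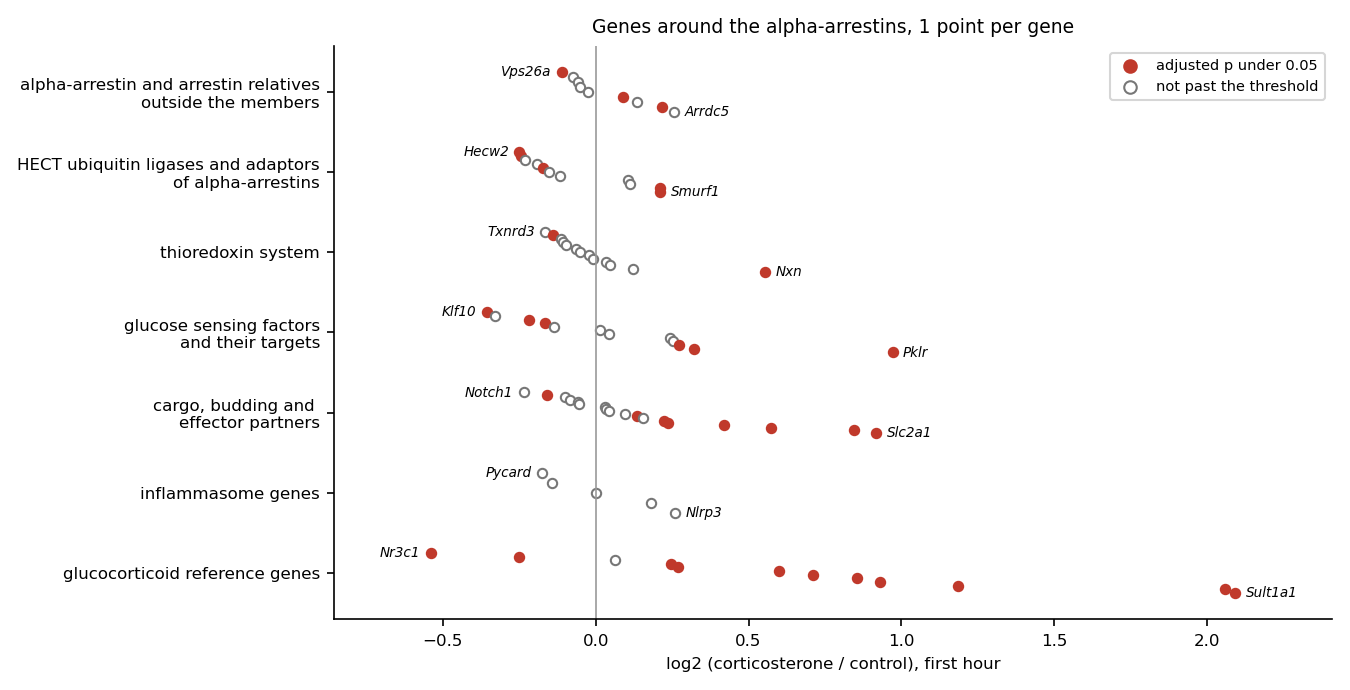
Log2 fold change of corticosterone over control in the first hour (x axis) for the 80 genes of the 7 lists, 1 point per gene; filled points passed an adjusted p of 0.05 and open points did not, and the outermost genes of each list are named. Slc2a1 lies at 0.92 in the cargo list and Nxn at 0.55 in the thioredoxin list.

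As a reference for the hormone, 9 of 12 genes known to respond to glucocorticoids were higher and 2 lower in the first hour, with a median log2 fold change of 0.66. This list was also drawn up with earlier results of these data known. Its counts and p-values are therefore a description and not an independent check of the hormone. Tsc22d3 (GILZ) rose by 0.93 ± 0.10 (SE), Mt1, a metallothionein, by 1.18 ± 0.06 (SE), Cdkn1a, a cell cycle inhibitor, by 2.06 ± 0.18 (SE) and Sult1a1, a sulfotransferase, by 2.09 ± 0.11 (SE), each on 8 of 8 arrays. The effect was lower in the ninth hour than in the first for 9 of the 12, where 0.574% of all probes were lower, and higher for 1. In the fifth hour 6 of the 12 were higher and 2 lower, and in the ninth 2 and 5. Tsc22d3 was below control values by 0.58 in the ninth hour (adjusted p = 3.3e-05 by limma). Sult1a1 was still higher by 1.68 (adjusted p = 1.9e-16 by limma) and Mt1 by 0.43 (adjusted p = 3.3e-07 by limma) in that hour.

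The genes whose intensity was most like that of Arrdc2 over the 48 animals, among 15436 genes with a signal of 50 or more, were Plekhf1 (r = 0.92), Pmaip1 (r = 0.90), Pdk4 (r = 0.89), Sgk1 (r = 0.87) and Arl4d (r = 0.87). Their first-hour log2 fold changes were between 0.71 for Sgk1 and 1.27 for Pmaip1. For Txnip they were Nfkbia (r = 0.79), Ddit4 (r = 0.71), Klf15 (r = 0.71), Arrdc2 (r = 0.71) and Ppp1r3g (r = 0.70). These values are a description over animals that share arrays and contain the difference between groups. After subtraction of the mean of each group, the genes most like Arrdc2 were Ccser1 (r = 0.69), Acot2 (r = 0.69), Opn3 (r = 0.68), Cited2 (r = 0.67) and Emilin2 (r = 0.67). Those most like Txnip were Ubac1 (r = 0.67), Ptprc (r = 0.67), Gm8016 (r = 0.66), Bri3 (r = 0.66) and Tdrp (r = 0.65). The genes named before then had r from 0.43 (Sgk1) to 0.66 (Pdk4) with Arrdc2, and from 0.23 (Arrdc2) to 0.41 (Nfkbia) with Txnip.

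Some markers of neurons, astrocytes, oligodendrocytes, microglia, endothelial cells and mural cells differed with the treatment in the first hour. In that hour, 8.85% of all probes were higher and 8.67% lower. The summed signal of 6 astrocyte markers ranged from 32727 to 36817 in control mice and from 36698 to 44649.9 in treated mice, and 2 of them were higher (Aldh1l1 and Gjb6) and 1 was lower (Aqp4). The summed signal of 7 endothelial markers ranged from 16523 to 19982 in control mice and from 14869 to 17255 in treated mice, with 2 higher and 5 lower. Between the ninth and the first hour, the treatment effect was higher for 3 of the 7 endothelial markers (Cldn5, Kdr and Slco1c1, by 0.60, 0.57 and 0.43) and lower for 1, and among the astrocyte markers it was lower for Gjb6, by 0.80. Over all probes, 0.574% were lower in this comparison. The share of all probes that were higher is not given here, so nothing is read from the count of 3. Of 8 markers of hippocampal neurons, 2 were higher in the first hour and 6 were not past the threshold, and all 8 had mean signals above the limit of 50. All markers of astrocytes, oligodendrocytes, microglia, endothelial cells and mural cells were above it too, so this limit does not tell tissues apart. The choroid plexus markers Folr1 and Otx2 had mean signals of 41.3 and 35.3, and none of the 6 choroid plexus or 2 measured blood markers passed the limma test in the first hour, with 0 at an unadjusted p under 0.05. Both blood markers had an unadjusted p under 0.05 in the fifth hour, and neither passed. In the first hour, 2 of 6 oligodendrocyte markers were higher and 2 lower, and 2 of 6 microglial and 1 of 5 mural cell markers were lower. The summed oligodendrocyte signal of that hour had medians of 66758.5 in control and 59638 in treated mice, with overlapping ranges. The part of cell composition in the values of Arrdc2, Arrdc4 and Txnip was not tested.

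The mean first-hour ratios of Arrdc2, Txnip and Arrdc4 were above 0 on each slide. The mean log2 ratio of Arrdc2 was 0.89, 0.61 and 0.81 on slides 1, 2 and 3, from 2, 3 and 3 arrays. Txnip had 0.68, 0.31 and 0.65, and Arrdc4 had 0.53, 0.16 and 0.27. Slide 2 held the first-hour replicates 4 and 5 described above and gave the lowest mean for each of the 3 genes.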

How the data were processed

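Hippocampal RNA was measured on 24 two-color arrays, and the authors deposited scanner output of Agilent Feature Extraction 10.7.3.1 with median intensity and background intensity per spot, not normalized. The authors' further table holds log2 ratios of Cy5 over Cy3, whose values lay closest to normexp with an offset of 50 and loess alone (median absolute difference 0.00119), and was used as an alternative. Intensities were corrected by normexp (offset 50 for p values, 0 for fold changes), then normalized by loess within and quantiles between arrays in limma 3.58.1 (R 4.3.3, statmod 1.5.0), after the study's methods. Spots marked as outliers were left out. The separate channel model fitted 6 groups with an intraspot correlation of 0.279, and p-values were adjusted by Benjamini-Hochberg over 56605 probes. Per array, 60.8% to 67.2% of gene spots in Cy3 and 64.0% to 73.5% in Cy5 were well above background, no spot was saturated, and the number of arrays limits the precision. Dyes were not swapped.

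Probes were named through transcript accessions with RefSeq (GRCm38.p6), which named 34566 of them. From each list, named genes were up to 4 past the threshold in the first hour with the largest change, a signal of at least 50 and 1 direction on all 8 arrays, and Slc2a1, Mlxip, Mlxipl, Txn1, Itch, Nedd4 and Arrb1 in any case. Members and lists were chosen with earlier results of these data known. Alternatives covered offset, background, normalization, outlier spots, low signals and slides.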

Additional observations from a re-analysis of the deposited data

Results flagged for a closer look

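In treated mice of the first hour, 1 animal had an Arrdc3 signal of 1653, far from the next at 1004, and the gap took a share of 0.763 of the range. In control mice of the fifth hour, 1 animal had a signal of 62.4 on the second Txnip probe (A_55_P2006255), with the next at 44.5 and a share of 0.576. In all, 54 groups of 8 animals were looked at, and chance marks about 1 in 20 such groups.

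The corticosterone effect differed between hours past the adjusted threshold for 3 probes. For Arrdc2 (A_55_P2088440), the ninth hour minus the first was -0.87 and the fifth minus the first was -0.70. For Arrdc2 (A_55_P1957922) these were -0.94 and -0.73. For Txnip (A_66_P131361), the ninth hour minus the first was -0.72. The genes were proposed with these ratios known, so the differences are values and carry no test here.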

How the results depend on the processing

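Of 676 corticosterone values of the members under the alternatives, 675 moved by less than the spread between arrays. This count includes the values with single arrays left out, which can shift a mean only a little. Slide as a block, limma on log ratios and the signal limit returned the same differences between treated and control mice. Much of this count was therefore fixed in advance, and nothing is read from it. The exception was the second Txnip probe in the first hour, at 0.71 with the processed signals of the scanner software, and it was 0.14 with the offset of 50, 0.15 with the authors' log2 ratios and 0.19 without background correction. The count of 6 member probes past the threshold in the first hour ranged from 4 to 6. The second Txnip probe lost its call without slide 1, without slide 3 and, by its signal, with a signal of 50 or more, and the brightest Arrdc4 probe lost it without slide 1. The share of all probes past it ranged from 8.04% without slide 2 to 24.3% with a signal of 50 or more. In the ninth hour, the count of higher member probes (1) was 2 without normalization between arrays, with limma on log ratios and with the authors' log2 ratios, the brightest Arrdc4 probe being the one gained, and 0 without the arrays of slide 1 or of slide 2. With a signal of 50 or more, the brightest Arrdc4 probe was higher, the dim Arrdc1 probe was left out, and 1 member probe, that of Arrdc3, was lower.

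By the brightest probes, no change between hours in control mice passed the threshold under any alternative, and 9 of 180 turned in sign, all small. The second probes were followed under the alternatives only from the first to the ninth hour, where none passed. Arrdc1, the fifth minus the first hour, was 0.0637 with processed signals and 0.0175 without slide 2. Arrdc2, the ninth minus the first hour, was -0.00490 with the offset of 50, -0.00331 without background correction, -0.0114 with slide as a block and -0.0823 without slide 1. Arrdc3, the ninth minus the fifth hour, was 0.0441 without normalization between arrays and 0.0362 without slide 1. Txnip, the fifth minus the first hour, was 0.0291 without slide 2.

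Of the 80 pathway genes, 24 were higher and 11 lower in the first hour, where 8.85% of all probes were higher and 8.67% lower. Of these, 9 and 2 came from the 12 glucocorticoid reference genes. Without slide 2, 5 of the 80 were lower, where the share of all probes that were lower went from 8.67% to 3.86%. In the ninth hour, 12 were higher and 9 lower, of which 2 and 5 were reference genes. Without slide 1, 5 were higher and 4 lower, where the shares of all probes went from 7.01% and 6.97% to 1.86% and 1.42%. Leaving out each array of the hour in turn, chosen after seeing the data, gave first-hour values from 0.71 to 0.84 for Arrdc2, 0.50 to 0.61 for Txnip, 0.22 to 0.34 for Arrdc4, -0.08 to 0.06 for Arrdc3 and 0.02 to 0.08 for Arrdc1. In the fifth hour, the ranges were 0.03 to 0.09 for Arrdc2, 0.02 to 0.11 for Txnip, 0.03 to 0.09 for Arrdc4, -0.25 to -0.14 for Arrdc3 and -0.01 to 0.05 for Arrdc1. In the ninth hour, they were -0.14 to -0.09, -0.22 to -0.12, 0.18 to 0.24, -0.31 to -0.20 and 0.08 to 0.14 for the same genes in this order. Each array pairs 1 control with 1 treated mouse, and limma was also run on the log ratios within arrays. It placed 6 member probes and 18.2% of all probes past the threshold in the first hour, a description, since the genes were chosen on these ratios. Slide, which held arrays of every hour, was also fitted as a block. With no dye swap, the treatment and the dye cannot be told apart in a single hour.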
